A study of Mus musculus with 9 samples.

Results

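Messenger RNA of 8 S100 genes, S100b, S100a1, S100a4, S100a6, S100a10, S100a11, S100a13 and S100a16, was followed in labelled periosteal cells of mice before and after tibial fracture. The genes were chosen as the probes whose platform symbol is one of these 8 names, which leaves out S100a8 and S100a9, the abundant S100 pair of neutrophils. All 8 were on the array with 1 probe each, and all 8 were among the 10073 genes that passed the detection filter (3 or more of the 9 arrays with a detection p under 0.05). The names were chosen by gene family with the levels and group differences of an earlier pass over these arrays known. Levels, differences and adjusted p-values of the 8 genes are therefore descriptions, and no count over them supports a claim of its own.

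The cells came from αSMACreERT2/Ai9 mice of strain B6;129S6, aged 2 to 5.5 months. Cells that use the promoter of alpha smooth muscle actin make a tamoxifen-dependent Cre there, which switches on the red reporter of the Ai9 allele for good, so that their later progeny carry it too. All animals, unfractured ones included, had 2 doses of tamoxifen at 75 µg per g. The 3 groups of 3 pools each were unfractured tibial periosteum collected at day 2 after tamoxifen, periosteum collected 2 days after fracture, and periosteum with soft callus collected 6 days after fracture. No unfractured pool was collected at day 6, so that day and fracture cannot be told apart in the comparison of day 6 with unfractured cells. Each pool held the sorted labelled cells of 4 to 9 animals of 1 sex, with 2 male pools and 1 female pool per group. Acta2 itself, which encodes alpha smooth muscle actin, had mean log2 intensities of 15.91 in unfractured, 15.27 in day 2 and 14.86 in day 6 pools.

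S100 proteins are small calcium-binding proteins with paired EF-hand motifs. Most form dimers, and binding of calcium exposes a surface through which they hold target proteins such as annexins, cytoskeletal proteins and enzymes. Several are also released from cells and bind receptors such as RAGE, the product of Ager. In skeletal tissue S100b and S100a1 are known from cartilage, where both have been described as targets of the Sox transcription factors that form chondrocytes. S100a4 and S100a6 are widely made by fibroblasts and other mesenchymal cells, and S100a10 and S100a11 are the partners of annexins.

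In the RefSeq gene table (assembly GRCm38.p6) 7 of the 8 genes lie on chromosome 3, and S100b lies alone on chromosome 10. S100a1 is the first S100 gene of the chromosome 3 cluster and S100a13 the second, and the pair is read from opposite strands. S100a4 and S100a6 flank S100a5 further along, and S100a11 and S100a10 neighbour each other at the far end. The RefSeq promoter table held a window for 7 of the 8 genes, and none was used for S100a10. The 250 bases before the listed start are shown for S100b and S100a6, the genes that passed the test between groups, and the bases between the divergent starts are shown for S100a1 and S100a13, which start head to head. Capitals mark TGNGGT (the core of RUNX sites) or CCAAT, on either strand.
S100b, chr10:76253586-76253835, plus strand: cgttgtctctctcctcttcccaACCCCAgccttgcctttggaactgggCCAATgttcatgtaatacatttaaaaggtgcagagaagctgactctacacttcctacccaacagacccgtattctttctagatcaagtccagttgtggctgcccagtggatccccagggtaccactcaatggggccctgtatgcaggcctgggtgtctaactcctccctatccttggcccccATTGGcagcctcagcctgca
S100a6, chr3:90612644-90612893, plus strand: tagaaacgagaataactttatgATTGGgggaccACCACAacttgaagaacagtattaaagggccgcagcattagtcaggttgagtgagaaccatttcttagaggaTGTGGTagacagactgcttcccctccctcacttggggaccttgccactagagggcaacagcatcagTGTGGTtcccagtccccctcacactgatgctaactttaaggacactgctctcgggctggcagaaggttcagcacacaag
S100a1 to S100a13, chr3:90514331-90514434, plus strand: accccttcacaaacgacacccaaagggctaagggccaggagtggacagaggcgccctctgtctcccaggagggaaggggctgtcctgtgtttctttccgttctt

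The S100a1 and S100a13 starts in that table are separated by the 104 bases shown. None of the 7 motifs searched occurs within them. S100a16 had 2 windows, so that the 7 genes had 8. A gene was counted if any of its windows held the motif, whereas the shares of all windows are per window. Over the 250-base windows TGNGGT was found in 5 of the 7 genes (S100a1, S100a4, S100a6, S100a16 and S100b), against 40.1% of all 32851 windows. CCAAT, a motif added after the S100b sequence had been read, was found in S100b and S100a6, against 33.9% of all windows. ACAAT, the core of SOX sites, was found in S100a4 and S100a16 and in 27.7% of all windows, and TGANTCA, the AP-1 motif, in S100a11 and S100a16 and in 6.75% of all windows. GGGCGG was found in S100a11 and S100a16 (32.7% of all windows), TATAAA in S100a4 (12.4%), and the CArG box in none of the 7 genes (1.47%). The motifs overlapped nowhere in the sequences shown. A match is a run of letters in this window and was not tested as a binding site.

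Intensities are given as log2 values after background correction and quantile normalisation, in which 1 unit is a doubling, and levels of different probes are not compared with each other. Between 40.4% and 55.2% of 25697 probes were detected per array. Unfractured replicate 3 (10.69), day 2 replicate 1 (12.04) and day 6 replicate 1 (10.36) had a high mean log2 intensity over 21 genes of macrophages and other leukocytes, against 6.93 to 8.32 in the other 6 pools. These 3 pools, all male, are called leukocyte-rich from here on, by that list alone. Of the 22 genes of that list on the platform 1, Cybb, was detected on no array. A separate list of 15 neutrophil genes was high in unfractured replicate 1 too (mean 11.55, against 11.58 in unfractured replicate 3). Unfractured replicate 1 is nevertheless counted among the other 6 pools. In a bulk pool fewer cells of a type and less RNA per cell cannot be told apart. The p-values measure the spread between these pools.

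Between unfractured and day 6 cells 1 of the 8 genes rose, S100b, and 1 fell, S100a6 (limma, adjusted p under 0.05 over all genes). Of all genes 2.82% passed in that comparison, 2.19% higher and 0.625% lower. S100b was detected in 0 unfractured, 2 day 2 and 3 day 6 pools. It met the detection filter only with day 6 arrays counted, so that its call is a description. Between unfractured and day 2 cells 0 of the 8 genes and 0 of all genes passed, which is 0% in limma; at an unadjusted p under 0.05 it was 1 of 8, S100a6, against 16.1% of all genes. Between day 2 and day 6 cells 0 of the 8 genes passed, against 1.42% of all genes; at an unadjusted p under 0.05 it was 3 of 8, S100b, S100a1 and S100a4, against 11.6% of all genes. For day 6 against unfractured the count at an unadjusted p under 0.05 was 5 of 8, against 21.0% of all genes. The median difference of the 8 genes was -0.07 at day 2 and -0.45 at day 6 against unfractured cells, where the median of all genes was 0.06 and 0.04. Both comparisons use the same unfractured pools.

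The groups did not overlap at day 6 for 5 genes. S100b and S100a1 were higher in every day 6 pool than in every unfractured pool, as were 14.2% of all genes. S100a4, S100a6 and S100a13 were lower in every day 6 pool, as were 11.8% of all genes. At day 2 S100a6 and S100a13 were lower in every pool than in every unfractured pool (7.69% of all genes) and no gene of the 8 was higher in every pool (10.9% of all genes). From day 2 to day 6 the groups did not overlap for S100b, which was higher (11.8% of all genes), or for S100a4 and S100a6, which were lower (13.2% of all genes).

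**Figure D1:**
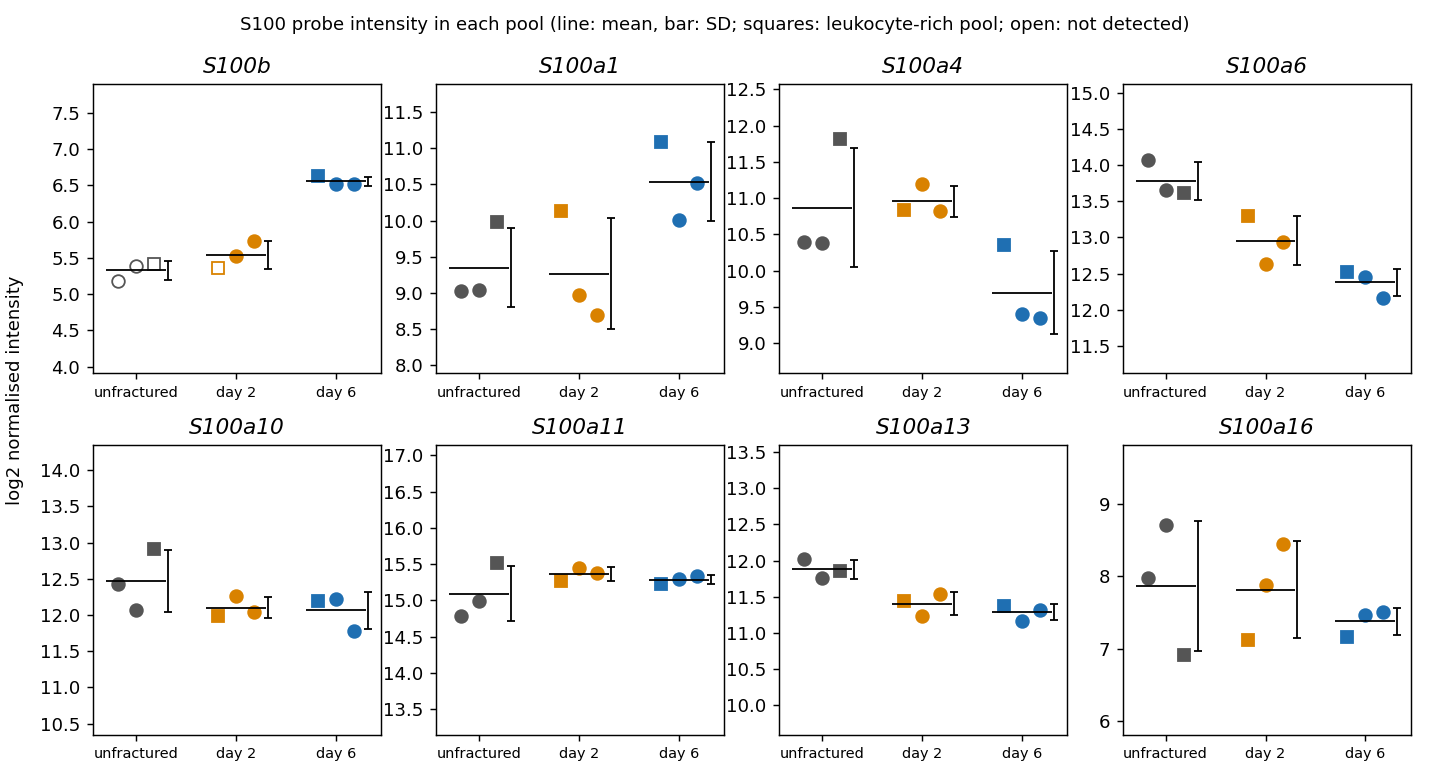
Log2 normalised intensity of the 8 S100 probes in each of the 9 pools, by group; the line is the mean and the bar the SD of 3 pools, squares are the leukocyte-rich pools and open symbols were not detected. S100b sits between 6.52 and 6.63 in the day 6 pools and at or below 5.74 elsewhere, and S100a6 has the unfractured pools at the top and the day 6 pools at the bottom.

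S100b, best known as the S100 protein of glia and of chondrocytes, was at the edge of detection. Its log2 intensity was 5.18, 5.39 and 5.42 in unfractured replicates 1 to 3, 5.35, 5.52 and 5.74 in day 2 replicates 1 to 3, and 6.63, 6.52 and 6.52 in day 6 replicates 1 to 3. All 3 day 6 pools were higher than all 6 others, and the day 2 and unfractured pools overlapped. Detection p-values were 0.385, 0.188 and 0.122 in the unfractured group, 0.174, 0.0489 and 0.0263 in the day 2 group and 0.00251, 0.00125 and 0.00125 in the day 6 group, so that the probe counted as detected in 0, 2 and 3 pools. The raw intensities behind these values were 200.5, 173 and 199 in unfractured replicates 1 to 3, followed by 147, 208 and 238 for day 2 and by 173, 262 and 261 for day 6. Before background correction the leukocyte-rich day 6 pool was thus as dim as an unfractured pool. Its whole array was dim, with a median raw intensity of 145 against 184 to 219 on unfractured arrays.

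The rise of S100b from unfractured to day 6 was 1.23 ± 0.21 (log2 difference with SE, limma adjusted p = 0.0205, n = 3). Since no unfractured pool detected it, the measured bound is at least 1.33-fold higher. The lowest detected log2 intensity on unfractured replicate 1 was 6.66, above the S100b level of the day 6 pools. The difference from day 2 to day 6 was 1.02 ± 0.21 (adjusted p = 0.0638, n = 3), and that from unfractured to day 2 was 0.21 ± 0.21 (adjusted p = 0.627, n = 3). Without background correction the day 6 difference was 0.40 (adjusted p = 0.103) and in the authors' quantile-normalised values 0.35 (adjusted p = 0.127), short of the threshold in both. The call also ended when any 1 of unfractured replicates 1 and 2, day 2 replicate 2 or the 3 day 6 pools was left out (highest adjusted p = 0.137), with values from 1.13 to 1.31. It ended when day 2 pools were kept out of the fit (adjusted p = 0.0659) and under median scaling (1.10, adjusted p = 0.109), where the median of all genes was 0.72.

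S100b is also a gene of Schwann cells, adipocytes and melanocytes. Of 15 listed Schwann cell genes 10 were on the platform and 7 passed the filter. At day 6 against unfractured cells 0 of these 7 were called, where 2.82% of all genes were (median difference -0.40). A count of 0 among 7 genes lies near that share. Their mean log2 intensity ran from 7.96 to 8.77 in unfractured, 7.34 to 8.44 in day 2 and 8.21 to 8.66 in day 6 pools. The differences of the 7 genes at day 6 ran both ways. Gap43 had a difference of 1.66 ± 0.60 (limma adjusted p = 0.166, n = 3). It was detected in no unfractured pool, so that it passed the filter only through fracture arrays. It was higher in every day 6 pool, as were 14.2% of all genes. Mbp had a difference of 1.28 ± 0.62 (limma adjusted p = 0.281, n = 3), whereas Dhh had -1.32 ± 0.53 (adjusted p = 0.204, n = 3). Cdh19, Foxd3 and Gfap were detected on no array. The part of Schwann cells in the S100b difference was not tested. Of 6 melanocyte genes 2 passed the filter, with a mean of 5.63 to 6.10 in unfractured and 5.04 to 5.83 in day 6 pools, and Dct was detected on no array. The adipocyte genes Plin1, Fabp4, Cidec and Retn were detected on no array. The 4 adipocyte genes that passed the filter averaged 8.47 to 11.30 in unfractured, 8.00 to 9.94 in day 2 and 7.72 to 10.82 in day 6 pools. Their mean was highest in the leukocyte-rich pool of each group. Of the 4 genes 1, Pparg, fell at day 6, where 0.625% of all genes were called lower.

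Chondrocyte genes stood higher at day 6 as well. Of 20 listed, 16 passed the filter, and 12 of these were called higher and 0 lower at day 6, where 2.19% of all genes were called higher. Of the 12, Col9a2, Matn1, Ucma and Mia were detected on the 3 day 6 arrays alone and passed the filter only through them. Col10a1 was detected on 4 arrays and Col9a1, Hapln1 and Scrg1 on 5, so that these passed only with day 6 arrays counted. The count is therefore a description. The mean of the 16 ran from 6.92 to 7.36 in unfractured, 6.52 to 6.94 in day 2 and 11.30 to 12.38 in day 6 pools. Sox9, the transcription factor that cartilage formation needs, rose by 3.54 ± 0.61 from unfractured to day 6 (limma adjusted p = 0.0208, n = 3). Col2a1, the main collagen of cartilage and detected on all 9 arrays, rose by 6.42 ± 1.19 (adjusted p = 0.0258, n = 3). Cytl1 had a difference of -2.80 ± 0.64 and did not pass (adjusted p = 0.0575, n = 3), and Col9a3 and Matn3 were detected on no array. The part of the chondrocytes in the S100b difference was not tested.

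S100a1, an S100 protein of muscle and chondrocytes, was detected in all 9 pools. It stood at a log2 intensity of 9.03, 9.04 and 9.98 in unfractured replicates 1 to 3, 10.14, 8.98 and 8.69 in day 2 replicates 1 to 3, and 11.09, 10.002 and 10.52 in day 6 replicates 1 to 3. In each group the leukocyte-rich pool was the highest, and every day 6 pool lay above every unfractured pool, day 6 replicate 2 only just. The mean was 9.35 ± 0.54 in unfractured, 9.27 ± 0.77 at day 2 and 10.54 ± 0.54 at day 6 (SD, n = 3).

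The S100a1 difference from unfractured to day 6 was 1.19 ± 0.46 (limma adjusted p = 0.194, n = 3) and from day 2 to day 6 it was 1.27 ± 0.46 (adjusted p = 0.321, n = 3). Between unfractured and day 2 it was -0.08 ± 0.46, with a 95% interval from -1.14 to 0.97. In the 3 leukocyte-rich pools alone S100a1 was 1.11 higher at day 6 than in unfractured cells, and in the other 6 pools 1.22 higher. Fitted to those 6 arrays the difference was 1.25 ± 0.24 and passed (limma adjusted p = 0.0186, n = 2), as did 31.5% of all genes there. The S100a1 difference also passed under median scaling of all 9 arrays (2.07, limma adjusted p = 0.0442). Of 11 skeletal muscle genes 7 passed the filter, and their mean ran from 6.75 to 10.34 in unfractured and from 5.92 to 7.59 in day 6 pools. At day 6 against unfractured cells 0 of these 7 were called, where 2.82% of all genes were.

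S100a13, which takes part in the release of the growth factor FGF1, starts head to head with S100a1. Pool by pool its log2 intensity was 12.02, 11.76 and 11.85 in unfractured replicates 1 to 3, 11.45, 11.23 and 11.53 in day 2 replicates 1 to 3, and 11.38, 11.17 and 11.31 in day 6 replicates 1 to 3. All 6 fracture pools were below all 3 unfractured pools. The difference from unfractured was -0.47 ± 0.21 at day 2 (adjusted p = 0.310) and -0.59 ± 0.21 at day 6 (limma adjusted p = 0.163, n = 3), and neither passed. Under median scaling these differences were 0.62 and 0.39, below the medians of all genes of 0.83 and 0.72. The difference between S100a1 and S100a13 was not tested.

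S100a6, or calcyclin, is an S100 protein of proliferating fibroblasts and smooth muscle that binds annexins and the product of Cacybp. The log2 intensities of its probe were 14.07, 13.65 and 13.61 in unfractured replicates 1 to 3, 13.30, 12.63 and 12.94 in day 2 replicates 1 to 3, and 12.52, 12.46 and 12.17 in day 6 replicates 1 to 3. In these normalised values the 3 groups did not overlap, with unfractured pools highest and day 6 pools lowest. The share of all genes with such an order was not counted. Raw intensities were 4927, 7019 and 8548 in unfractured replicates 1 to 3, and 5587, 12595 and 12645 in day 2 replicates 1 to 3. They were 3436, 8531 and 6594 in day 6 replicates 1 to 3, so that the groups overlapped before correction and normalisation. The leukocyte-rich pool was lowest in the unfractured group and highest in both fracture groups.

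S100a6 fell by 1.40 (± 0.26) on the log2 scale from unfractured to day 6 (SE, n = 3, limma adjusted p = 0.0274), to 0.380 of the unfractured level. At day 2 the difference was -0.82 ± 0.26 (adjusted p = 0.245, n = 3), and from day 2 to day 6 it was -0.57 ± 0.26 (adjusted p = 0.443, n = 3). The day 6 difference was -1.09 in the leukocyte-rich pools and -1.55 in the other 6. In the fit to those 6 arrays S100a6 passed at day 2 as well (-1.06 ± 0.24, limma adjusted p = 0.0383, n = 2), as did 22.2% of all genes there. The day 6 call ended without unfractured replicate 1 or 2, without day 2 replicate 3, without any 1 of the day 6 pools (highest adjusted p = 0.171), and when day 2 pools were kept out of the fit (adjusted p = 0.0664). Under median scaling the difference was -0.42 (adjusted p = 0.487), which lies 1.14 below the median of all genes there. The 12 pericyte and smooth muscle genes averaged 9.39 to 11.40 in unfractured and 8.99 to 9.35 in day 6 pools. Their median difference was -1.23, although the 1 gene called, Cspg4, was higher. The 11 endothelial genes averaged 10.07 to 11.54 and 8.55 to 10.39, with a median difference of -1.38 and 1 gene, Vwf, called lower. Of all genes 2.19% were called higher and 0.625% lower. The part of these cells in the S100a6 difference was not tested.

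S100a4, also called fibroblast-specific protein, binds non-muscle myosin and is made by leukocytes as well as fibroblasts. Measured log2 intensities were 10.40, 10.38 and 11.82 in unfractured replicates 1 to 3, 10.84, 11.20 and 10.82 in day 2 replicates 1 to 3, and 10.35, 9.39 and 9.34 in day 6 replicates 1 to 3. Every day 6 pool was below every other pool. The leukocyte-rich pool was the highest of its group in unfractured and day 6 cells, and the part of the leukocytes in its level was not tested. The 8 fibroblast and mesenchymal genes averaged 12.79 to 12.92 in unfractured and 12.53 to 13.01 in day 6 pools, with 0 called against 2.82% of all genes.

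The S100a4 difference was 0.09 ± 0.44 from unfractured to day 2, -1.17 ± 0.44 from unfractured to day 6 (limma adjusted p = 0.182, n = 3) and -1.26 ± 0.44 from day 2 to day 6 (adjusted p = 0.297, n = 3). None of the 3 passed. In the 6 arrays without the leukocyte-rich pools the difference from unfractured was 0.62 ± 0.20 at day 2 (limma adjusted p = 0.0744, n = 2). At day 6 it was -1.04 ± 0.20 in those arrays and passed (limma adjusted p = 0.0178, n = 2), as did 31.5% of all genes. From day 2 to day 6 S100a4 fell by 1.66 (± 0.20) in those arrays (limma adjusted p = 0.0276, n = 2), where 2.72% of all genes passed. Under median scaling of all 9 arrays the day 6 difference from unfractured was -0.24 (adjusted p = 0.793).

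More of the 8 genes, and more of all genes, passed in the 6 arrays left without the leukocyte-rich pools. Without them S100b, S100a1, S100a4 and S100a6 passed at day 6 against unfractured cells, 4 of 8 against 31.5% of all 9433 genes tested. At day 2 it was 1 of 8, S100a6, against 22.2% of all genes, and from day 2 to day 6 it was 1 of 8, S100a4, against 2.72%. This division was known from earlier results, and with n = 2 pools per group it leaves 1 male and 1 female pool in each. No other set of pools of that size was left out, so the part of the leukocytes in these counts was not tested.

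**Figure D2:**
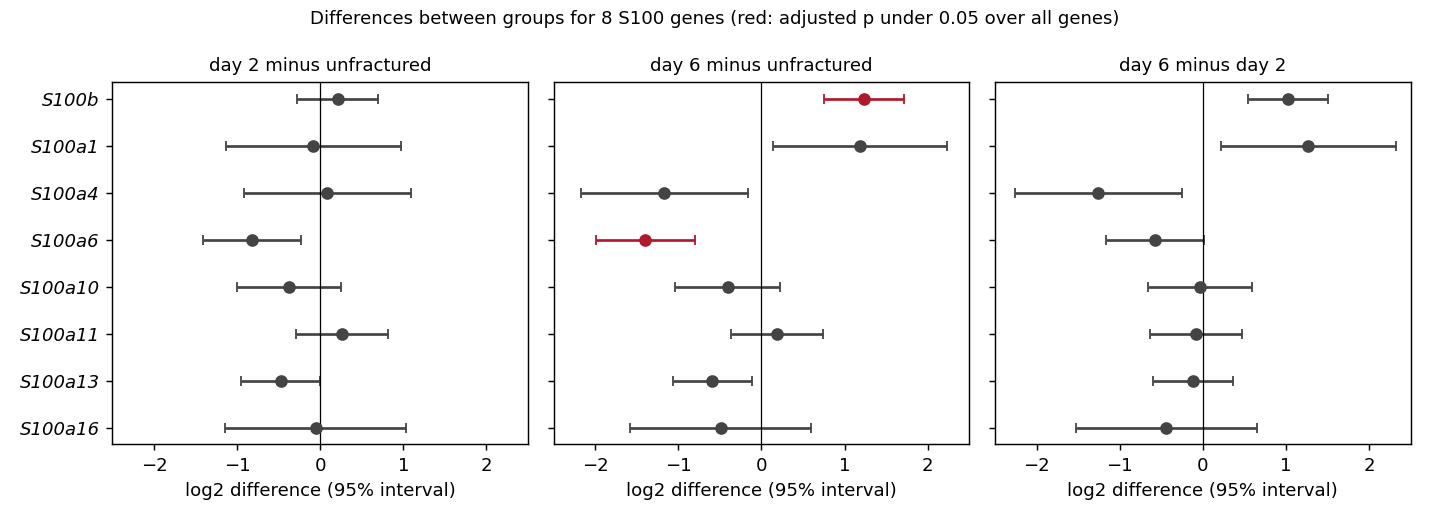
Log2 difference of each S100 gene for the 3 comparisons over all 9 arrays, with the 95% interval of the limma fit; red points passed at an adjusted p under 0.05 over all genes. S100b (1.23) and S100a6 (-1.40) are the red points, both for day 6 minus unfractured.

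S100a10, known as p11, forms a tetramer with annexin A2 at the plasma membrane. In log2 intensity it had 12.42, 12.07 and 12.92 in unfractured replicates 1 to 3, 11.99, 12.26 and 12.05 in day 2 replicates 1 to 3, and 12.19, 12.22 and 11.77 in day 6 replicates 1 to 3. All groups overlapped. The difference from unfractured was -0.37 (95% interval -0.999 to 0.26) at day 2 and -0.41 (-1.03 to 0.22) at day 6, and from day 2 to day 6 it was -0.04 (-0.66 to 0.59). Under median scaling the first and the second of these were 0.70 and 0.57, again below the medians of all genes.

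S100a11, or calgizzarin, is the partner of annexin A1 and has a role in membrane repair. Its log2 intensity was 14.78, 14.996 and 15.51 in unfractured replicates 1 to 3, 15.26, 15.45 and 15.37 in day 2 replicates 1 to 3, and 15.22, 15.29 and 15.34 in day 6 replicates 1 to 3. After quantile normalisation the fracture pools lay within the range of the unfractured pools. The difference from unfractured was 0.27 (95% interval -0.28 to 0.82) at day 2 and 0.19 (-0.36 to 0.74) at day 6. Under median scaling these differences were 0.99 and 1.05, above the medians of all genes of 0.83 and 0.72. Neither passed there (limma adjusted p = 0.181 and 0.194). The raw intensity of this probe was 12.8% to 59.4% of the brightest probe of the array in unfractured pools and up to 92.0% in day 2 replicate 2, so that it lies near the upper end of the scanner's range on some arrays. RefSeq also lists a pseudogene, S100a11-ps, and whether the probe reads it was not tested.

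S100a16, a broadly expressed family member tied to fat cell formation in mice, had the widest spread between unfractured pools among the 8 genes. Its log2 intensity was 7.98, 8.71 and 6.92 in unfractured replicates 1 to 3, 7.12, 7.89 and 8.45 in day 2 replicates 1 to 3, and 7.16, 7.46 and 7.51 in day 6 replicates 1 to 3. In each group the leukocyte-rich pool was the lowest, and the female pool was the highest. The difference from unfractured was -0.05 (95% interval -1.14 to 1.04) at day 2 and -0.49 (-1.58 to 0.60) at day 6. In the 6 pools that were not leukocyte-rich it was -0.85 at day 6, and in the leukocyte-rich pools 0.24.

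**Figure D3:**
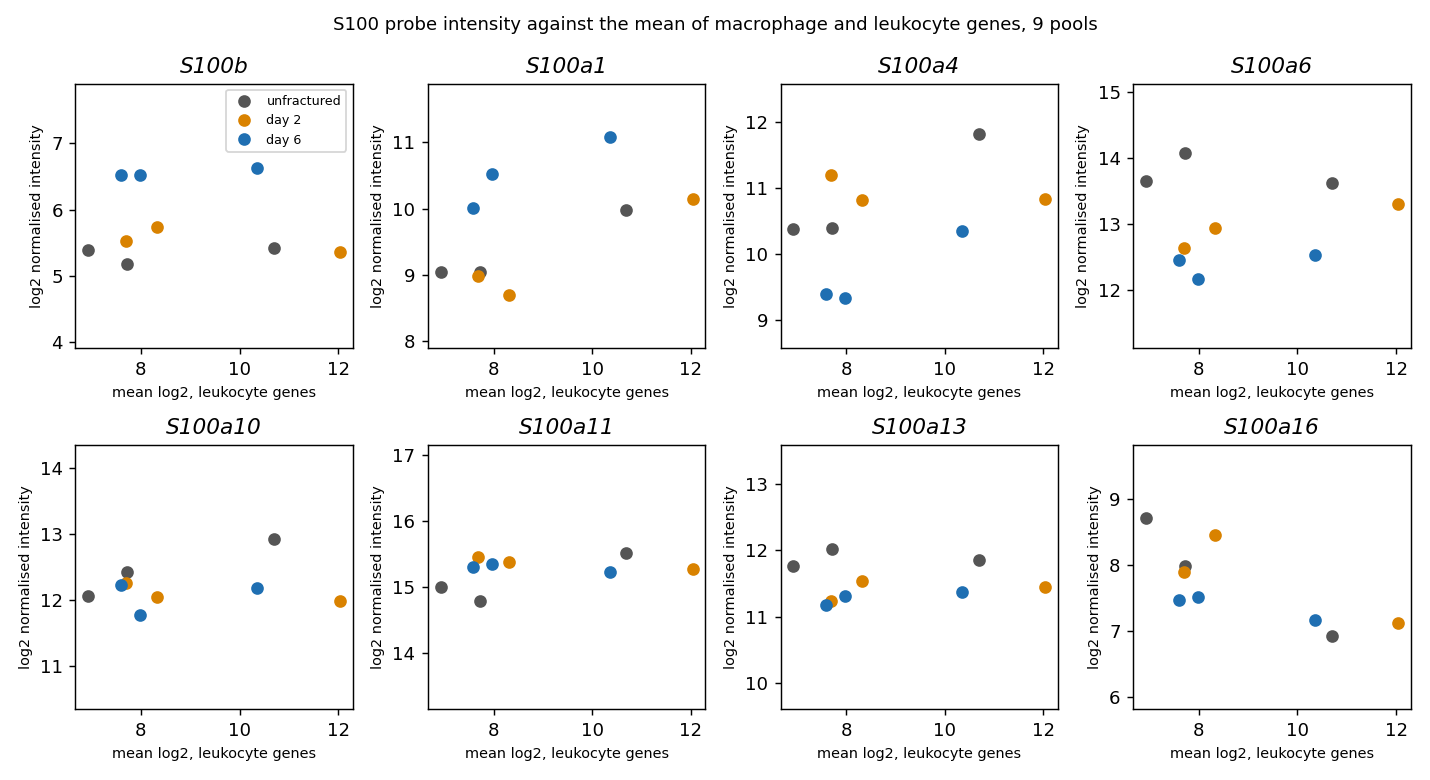
Log2 intensity of each S100 probe (vertical) against the mean log2 intensity of 21 macrophage and leukocyte genes (horizontal) in the 9 pools, coloured by group. Within each group S100a1 is highest and S100a16 lowest in the pool furthest to the right, whereas the 3 day 6 values of S100b lie between 6.52 and 6.63 in pools with leukocyte means of 7.59, 7.98 and 10.36.

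The order of pools differed among the 8 genes, so they did not behave as a block. Over the 9 pools the closest pair was S100a6 and S100a13 (Pearson r = 0.92, n = 9, a description over pools that share groups and leukocyte content). S100b and S100a6 ran in opposite directions (r = -0.85), as did S100a1 and S100a16 (r = -0.79). Among the 10073 measured genes those most like S100b over the 9 pools were Batf3 (r = 0.99), Spink6 (r = 0.99) and Rtl3 (r = 0.98), detected on 6, 3 and 8 arrays. Most like S100a1 were H2-DMb1 (r = 0.96), Serf2 and Tmem59, and most like S100a6 were Gps2 (r = 0.97), Ctsr and Rassf3. Most like S100a4 were Rpl35a (r = 0.97), Mmd and Cox8a. For S100a13 the closest genes were Olfr724 (r = 0.97), Nipal4 and Relt, and for S100a11 Akr1e1 (r = 0.98), Akip1 and Trip12. For S100a16 they were Tmem38a (r = 0.96), Usp9x and Dpysl2, and for S100a10 Insyn2b (r = 0.93), Zkscan3 and Chmp5. Insyn2b was detected on 3 arrays, Tmem38a on 5, and Akr1e1 and Akip1 on 7. Each named gene is among the 3 highest of 10073 correlations over only 9 pools, and none was tested.

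Partners of S100 proteins were followed through a list of 24 genes for annexins, receptors, kinases and other targets. All 24 were on the platform and 21 passed the filter, and 0 of the 21 passed the limma test in any of the 3 comparisons (Anxa7 and Syt1 were detected on no array). With 0%, 2.82% and 1.42% of all genes passing in these comparisons, a count of 0 among 21 genes lies near the background. The median difference was -0.03 at day 2 and -0.13 at day 6 against unfractured cells, with 0.06 and 0.04 for all genes. Anxa2, which encodes the partner of S100a10, had mean log2 intensities of 15.29 in unfractured, 15.78 in day 2 and 15.44 in day 6 pools, and the groups overlapped. Anxa1, which encodes the partner of S100a11, had 11.02, 10.92 and 10.23, with a day 6 difference from unfractured of -0.79 ± 0.31 (limma adjusted p = 0.194, n = 3). Every day 6 pool was below every unfractured pool, which held for 11.8% of all genes.

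Myh9, the non-muscle myosin heavy chain that S100a4 binds, had 12.74, 12.79 and 13.03 in unfractured replicates 1 to 3 and 12.24, 12.30 and 12.14 in day 6 replicates 1 to 3. Its day 6 difference of -0.63 ± 0.21 did not pass (limma adjusted p = 0.140, n = 3). Fgf1, the growth factor released with S100a13, had 11.46, 11.06 and 9.23 in unfractured, 6.92, 10.06 and 9.24 in day 2 and 7.70, 8.35 and 8.66 in day 6 replicates 1 to 3. Its day 6 difference of -2.35 ± 0.83 did not pass (adjusted p = 0.159, n = 3). Among the receptors, Ager, which encodes RAGE, was detected on 7 of the 9 arrays and lay between 5.22 and 6.29. That is near background, since the lowest detected signal per array ran from 5.51 to 6.66. Tlr4 had a day 6 difference of -0.65 ± 0.28 (limma adjusted p = 0.237, n = 3). Cacybp, which encodes the binding protein of S100a6, had a difference of -1.01 ± 0.45 from day 2 to day 6 (limma adjusted p = 0.433, n = 3). It was lower in every day 6 pool than in every day 2 pool, as were 13.2% of all genes.

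**Figure D4:**
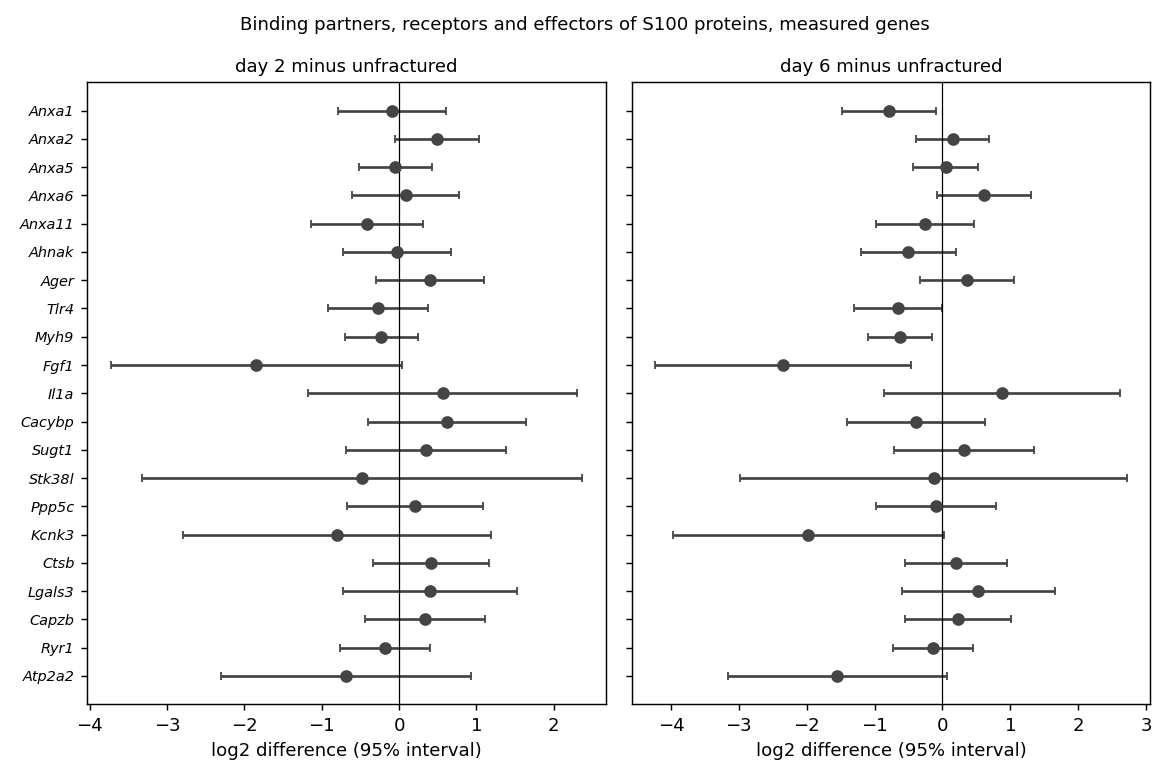
Log2 difference from unfractured cells at day 2 and day 6 for the 21 measured genes of the partner list, with the 95% interval of the limma fit. None passed at an adjusted p under 0.05, and Fgf1 has the lowest value in both panels.

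Of the neutrophil pair S100a8 and S100a9, which the list leaves out, S100a9 varied more between pools of a group than any of the 8 genes. S100a9 had 15.39, 13.22 and 15.39 in unfractured, 15.79, 12.91 and 12.70 in day 2 and 14.50, 12.35 and 12.45 in day 6 replicates 1 to 3. The SD of S100a9 within a group was 1.22 to 1.73, against 0.06 to 0.90 for the 8 genes, and neither gene of the pair passed in any comparison (smallest adjusted p = 0.397). The mean of 15 neutrophil genes was high in unfractured replicate 1 too (11.55), a pool in which S100a4 and S100a1 were as low as in unfractured replicate 2. Of the remaining S100 symbols S100a7a and S100g were detected in 0 of the 9 pools, S100a14 in 2 and S100a3 in 3. S100pbp, which encodes a binding protein of an S100 protein and is no family member, had 2 probes and did not pass in any comparison (smallest adjusted p = 0.435).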

How the data were processed

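Amplified, biotin-labelled RNA of 9 pools was hybridised to bead arrays, 1 array per pool, per the labels. The deposited non-normalised table holds linear probe intensities and, beside each, a detection p-value in steps of 1/798, exported from GenomeStudio (version not given in the sources used here) per the submitters' processing notes; it has no control probes. The second table holds linear intensities that the authors deposited after quantile normalisation, seen from the values. The function neqc (limma 3.58.1, R 4.3.3) corrected background, estimating negative controls through the detection p-values, added an offset of 16, made the arrays' quantiles equal and took log2. Of 25697 probes 23978 had 1 gene symbol and 1719 none; 14519 passed the detection filter. Where a gene had several probes, that with the highest mean stood for it. Group means were estimated jointly from all 9 arrays (lmFit, eBayes, 6 residual degrees of freedom), with two-sided tests and Benjamini-Hochberg adjustment over 10073 genes; the steps were tested on simulated data. The number of arrays limits the precision.

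The 8 genes, the gene lists and the division by leukocyte content were chosen with earlier results of these data known. Named are the 8 genes, other S100 symbols and up to 4 genes per list by adjusted p or because undetected. The 3 genes most correlated with each of the 8 are named too. Anxa1, Anxa2, Ager, Tlr4, Cacybp, Sox9, Col2a1, Cytl1, Col9a2, Matn1, Ucma, Mia, Mbp and Acta2 were named outside this rule, with their values known. So were Col9a1, Col10a1 and Scrg1. A bound on a fold uses, for the undetected group, the higher of the probe's own value and the lowest detected signal of each array. Deviations from group means correlated between arrays of the same replicate number at 0.51 to 0.63 for day 2 and day 6. Where unfractured pools were involved the values were -0.31 to 0.40. Arrays of different replicate numbers were not compared, and replicate 1 is leukocyte-rich in both fracture groups, so these values cannot show pairs. The labels give no pairs, and the main fit used none. Replicates of a group correlated at 0.854 to 0.990. Alternatives were 2 other normalisations, the deposited values, a larger offset, other detection filters, all probes, fits of only the groups compared, sex, a replicate block, 6 arrays, and each array left out.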

Additional observations from a re-analysis of the deposited data

Results flagged for a closer look

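S100a5, a family member outside the 8 genes that lies between S100a4 and S100a6, was picked out because its probe was detected in all 3 day 2 pools and in 0 of the unfractured and 0 of the day 6 pools. Its mean log2 intensity at day 2 was 5.99, with detection p-values of 0.0288, 0.01003 and 0.00627. In unfractured pools these were 0.615, 0.154 and 0.0815. The raw intensities at day 2 were 162, 236 and 270.0, against 188, 177 and 205 in unfractured pools. Day 2 replicate 1 was thus dimmer than every unfractured pool before background correction. Its whole array was dim, with a median raw intensity of 159 against 184 to 219 on unfractured arrays. The difference between day 2 and unfractured cells was 0.65 ± 0.25 and did not pass (limma adjusted p = 0.271, n = 3 pools per group), and no lower bound above 1-fold could be given.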

How the results depend on the processing

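The count of the 8 genes that passed depended on the pools and on the processing. For day 6 against unfractured it was 2, and became 1 without background correction, 1 in the deposited value table (both S100a6), 1 under median scaling (S100a1), 0 in a fit of only the groups compared and 4 in the 6 arrays; leaving out 1 pool gave 0 to 2. For day 2 against unfractured it was 0 and became 1 in the 6 arrays; leaving out 1 pool gave 0 to 0. For day 6 against day 2 it was 0 and became 1 without a detection filter (S100b, adjusted p = 0.0368), 1 in the 6 arrays (S100a4) and 1 without unfractured replicate 3 (S100b, adjusted p = 0.0433), so that leaving out 1 pool gave 0 to 1. The replicate block, which treats equal replicate numbers of all groups as pairs, changed no call of the 8 genes. In that fit S100b had a limma adjusted p of 0.0386 and S100a6 of 0.0341 at day 6 against unfractured. S100b had 0.112 at day 6 against day 2, with 2, 0 and 0 genes of the 8 called. The other settings left the 3 counts as they were.

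Of 480 values under alternatives 20 changed sign, none of them past the threshold. Under median scaling, which moved the median of all genes to 0.83, 0.72 and -0.13, these were the day 2 differences of S100a1 (0.92), S100a6 (0.23), S100a10 (0.70), S100a13 (0.62) and S100a16 (0.83), the day 6 differences from unfractured of S100a10 (0.57), S100a13 (0.39) and S100a16 (0.26), and the day 6 minus day 2 difference of S100a11 (0.0605). Leaving out 1 pool turned the sign of the day 2 difference of S100a1 (-0.52 to 0.23 over the 9 pools left out), S100a4 (-0.15 to 0.57) and S100a16 (-0.53 to 0.37), and of the day 6 minus day 2 difference of S100a10 (-0.12 to 0.10). The cause of these changes was not tested. Over all genes the number called was 0 (0 to 938 leaving out 1 pool, 2097 in the 6 arrays) at day 2, 284 (28 to 1577; 139 in a fit of only these groups; 2974 in the 6 arrays) at day 6 and 143 (24 to 190; 80 under median scaling; 89 with the replicate block; 216 in a fit of only these groups; 257 in the 6 arrays) between the fracture groups. Higher calls made up 221 of the 284, against 264 of 271 under median scaling. S100b lies close to background, which limits its fold.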
